A study of Mus musculus with 2 samples.

Results

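Elastic fibre genes encode the proteins that build the stretchable fibres of arteries, valves, lung and skin. The 10 genes described here, of 28692 in the count tables, are the core gene Eln, the fibulins Fbln5 and Efemp2, the microfibril genes Fbn1, Mfap4, Mfap5, Emilin1 and Ltbp4, and the crosslinking genes Lox and Loxl1. The list names them by their role in the fibre and was chosen with earlier results of these data known. Each had UMIs in both libraries and passed the minimum of 20 CPM used for counts below. A UMI is a tag for 1 captured RNA molecule, and CPM is the count of a gene scaled to the usual counts per 10 to the power 6 UMIs of the summed cells. The assay counts the 3' end of each molecule, so levels of different genes are compared as CPM without division by transcript length.

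The study dissected the base of the heart of 3-day-old C57Bl6 mice, male and female, into 2 domains. The dorsal one held pulmonary veins, cardiac ganglia and the sinoatrial node, and the ventral one held the base of the outflow tract with the pulmonary artery and the first stretch of the aorta. Cells from 15 hearts were pooled for each domain, grown as adherent cultures for 5 days, lifted with trypsin and sequenced as 1 library per domain. All animals and the 2 cultures had the same strain, age and handling, and no animal can be followed within a pool, so that domain, culture and library cannot be told apart. After barcodes with under 8000 UMIs or over 20% mitochondrial UMIs were left out, the dorsal library had 8926 cells with 229117951 UMIs and the ventral library had 10649 cells with 253103590 UMIs.

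Elastin is secreted as soluble tropoelastin, which gathers on a scaffold of fibrillin microfibrils and is then joined into an insoluble polymer by lysyl oxidases. Fibulin-5 and fibulin-4 (the product of Efemp2) help to carry tropoelastin and the oxidases to the microfibrils. In the great arteries most elastin is made by smooth muscle cells of the media around birth, and adventitial, valve and other fibroblasts contribute to the fibres of their own tissues.

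Each domain had a single library, so there were no replicates and no test between domains could be made. Intervals below are exact 95% intervals that cover counting error only, not differences between dissections, cultures or library preparations. The libraries had medians of 22770 dorsal and 21460 ventral UMIs per cell. They shared 22 cell barcodes, where independent draws from all barcodes of the count tables, with or without UMIs, would give 13.99. Cells that resembled doublets were kept, and results were repeated without them. Of the cell type marker lists, the smooth muscle list summed to 1802 CPM in the dorsal library and 9186 CPM in the ventral library, with 9 of its 10 genes higher in the ventral library and none at 0 in either. All 12 cell cycle markers were higher in the ventral library, with sums of 163 CPM dorsal and 469 CPM ventral. The fibroblast list summed to 14240 CPM dorsal and 10760 CPM ventral, with 8 of 12 genes higher in the dorsal library. The source is labelled as cardiac tissue, yet the cluster named by cardiomyocyte markers held 38 dorsal and 29 ventral cells, which is 0.426% and 0.272% of the cells.

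Promoter windows were found in the RefSeq table (build GRCm38.p6) for 5 of the 10 genes, namely Fbln5, Fbn1, Emilin1, Ltbp4 and Efemp2. The windows hold 300 bases, 250 before and 50 after the RefSeq start. Those of the 2 fibulins are shown because these relatives of the same family differed in their domain ratio and cluster pattern below, and that of Fbn1 because its levels across clusters followed those of Efemp2. Each is written 5' to 3' on the strand of its gene, and capitals mark the GC box GGGCGG and the CCAAT box CCAAT, read on either strand (CCGCCC and ATTGG are their reverse complements).
Fbln5, chr12:101819070-101819369, minus strand: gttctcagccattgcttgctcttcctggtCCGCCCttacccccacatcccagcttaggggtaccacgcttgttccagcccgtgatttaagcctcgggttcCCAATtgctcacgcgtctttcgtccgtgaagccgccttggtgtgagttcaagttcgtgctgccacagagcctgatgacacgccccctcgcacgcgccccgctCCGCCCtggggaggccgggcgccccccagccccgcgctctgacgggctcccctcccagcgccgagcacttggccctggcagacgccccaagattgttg
Efemp2, chr19:5473696-5473995, plus strand: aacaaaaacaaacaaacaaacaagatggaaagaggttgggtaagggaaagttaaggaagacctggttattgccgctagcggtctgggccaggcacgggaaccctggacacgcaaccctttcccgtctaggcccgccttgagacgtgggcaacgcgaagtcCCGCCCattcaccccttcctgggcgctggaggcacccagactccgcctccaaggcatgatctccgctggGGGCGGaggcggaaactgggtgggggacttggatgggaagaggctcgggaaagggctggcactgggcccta
Fbn1, chr2:125506389-125506688, minus strand: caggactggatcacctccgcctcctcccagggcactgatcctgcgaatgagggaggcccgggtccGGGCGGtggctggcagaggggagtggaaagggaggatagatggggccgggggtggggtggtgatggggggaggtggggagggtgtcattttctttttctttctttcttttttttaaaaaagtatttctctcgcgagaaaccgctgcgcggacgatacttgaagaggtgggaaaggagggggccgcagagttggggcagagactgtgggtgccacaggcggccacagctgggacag
The Fbln5 window held 2 GC boxes and 1 CCAAT box, the Efemp2 window 2 GC boxes, and the Fbn1 window 1 GC box. None of the 3 held the TATA box TATAAA or the AP-1 motif TGANTCA. Over all 32817 promoter windows of the table, 35.6% held a GC box, 37.4% a CCAAT box, 13.6% the TATA box and 7.81% the AP-1 motif. These motifs therefore describe the windows and do not set the 3 genes apart. The RefSeq start used for Fbn1 lies 1555 bases from the GENCODE start, against 64 bases for Fbln5 and 8 bases for Efemp2. The Fbn1 window thus lies inside the GENCODE gene. Fbln5 had 2 windows and Efemp2 had 3, and that nearest the GENCODE start is shown.

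Among the 10 genes, Eln differed most between the libraries by amount. In the summed cells, the 10 genes took 0.583% of all UMIs in the dorsal library and 1.17% in the ventral library, and Eln alone made up 49.96% of these UMIs in dorsal cells and 67.6% in ventral cells. At 2-fold or more, 0 of the 10 genes were higher in the dorsal library and 2 were higher in the ventral library, Eln and Fbln5. The background was 4.69% (dorsal higher) and 5.12% (ventral higher) of the 5821 genes that reached 20 CPM in a library. Of the 10 genes, 9 had a ratio below 1 and 1, Mfap5, a ratio above 1, and the median log2 ratio (dorsal over ventral) was -0.32, against 0.01 over those 5821 genes.

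**Figure D1:**
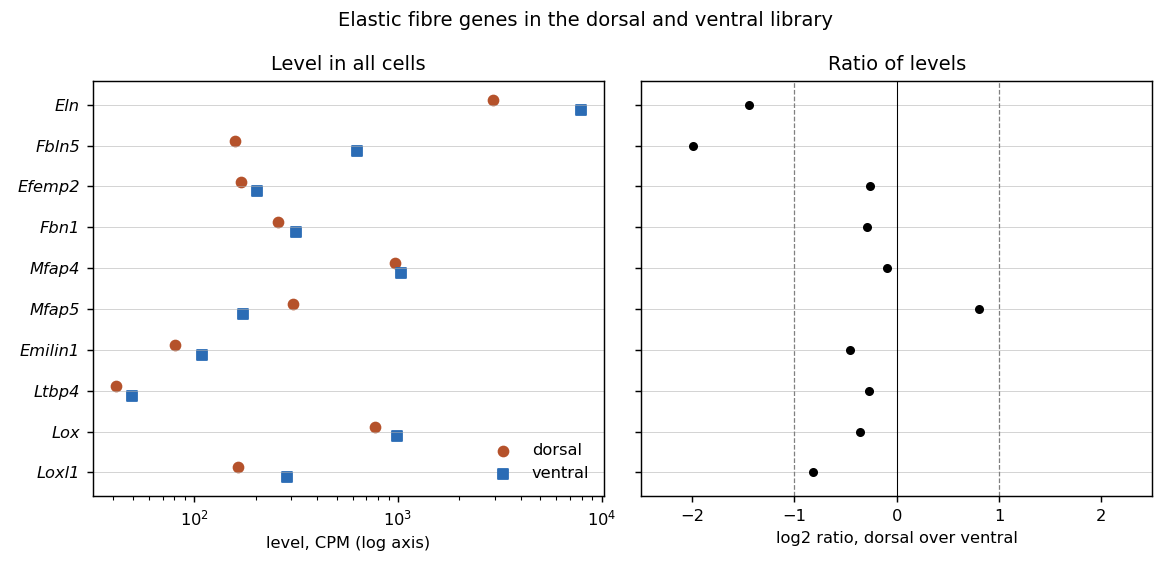
Levels of the 10 elastic fibre genes in CPM on a log axis in the dorsal (circles) and ventral (squares) library, left, and their log2 ratio, dorsal over ventral, right, with dashed lines at 2-fold. Eln at -1.44 and Fbln5 at -1.99 lie past 2-fold toward the ventral library, and Mfap5 at 0.81 lies on the dorsal side; counting intervals are narrower than the symbols.

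Eln (ENSMUSG00000029675, chr5:134702593-134747323, minus strand) encodes tropoelastin, the elastic core of the fibre. Its level was 2912 CPM (2905 to 2919) in the dorsal library, against 7902 CPM (7891 to 7912) in the ventral library, which was 2.71-fold higher in ventral cells. Eln ranked 67 among all genes by level in dorsal cells and 5 in ventral cells. Its level varied widely between cells of the same library, and the ranges overlapped. In dorsal cells the median cell had 896 CPM, and the central 80% of cells spanned 83.5 to 11890 CPM. In ventral cells the median cell had 5395 CPM, and the same span was 433 to 22690 CPM. The 10% of cells with the highest counts held 50.2% of the dorsal Eln UMIs and 31.9% of the ventral ones, so the dorsal signal was the more concentrated.

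Free RNA held the Eln transcript too. Barcodes of at most 100 UMIs, which hold mainly RNA from the medium, had Eln at 3951 CPM dorsally and 9441 CPM ventrally. Shares of cells with an Eln UMI, thinned to 8000 UMIs per cell, were 87.7% in dorsal and 99.0% in ventral cells. In macrophage-like cells the shares were 67.3% and 96.9%, although Eln there was at 0.222 times its free RNA level dorsally and 0.233 times ventrally. The share of cells thus separates Eln poorly from background, and the levels are used instead.

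Fbln5 (ENSMUSG00000021186, chr12:101746565-101819055, minus strand) encodes fibulin-5, which binds tropoelastin and lysyl oxidase-like proteins. Its level was 158 CPM in the dorsal library, against 628 CPM in the ventral library, 3.97-fold higher in ventral cells. This was the highest fold among the 10 genes. At 8000 UMIs per cell, 54.2% of dorsal and 86.2% of ventral cells had a Fbln5 UMI, against 17.3% of dorsal and 41.2% of ventral macrophage-like cells. Efemp2 (ENSMUSG00000024909, chr19:5473954-5482517, plus strand), the fibulin-4 gene, had 171 CPM dorsally and 204 CPM ventrally. The 2 fibulins thus stood at near levels in dorsal cells and far apart in ventral cells. The log2 ratios were -1.99 for Fbln5 and -0.26 for Efemp2.

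The microfibril genes differed little between the libraries, with the exception of Mfap5. Fbn1 (ENSMUSG00000027204, chr2:125300594-125507993, minus strand), which encodes the fibrillin of the microfibril backbone, had 258 CPM dorsally and 316 CPM ventrally (log2 ratio -0.29). Mfap4 (ENSMUSG00000042436, chr11:61485431-61488900, plus strand), whose product binds fibrillin and tropoelastin, had 968 CPM dorsally and 1032 CPM ventrally (log2 ratio -0.09). It was the most abundant of the 5 microfibril genes in both libraries and the nearest to equal of the 10. Emilin1 (ENSMUSG00000029163, chr5:30913402-30921277, plus strand), an elastin-binding glycoprotein at the border of elastin and microfibril, had 80.3 CPM dorsally and 110 CPM ventrally (log2 ratio -0.45). Ltbp4 (ENSMUSG00000040488, chr7:27305136-27337692, minus strand), a latent TGF-beta binding protein that helps fibulin-5 to deposit elastin, was the lowest of the 10 at 41.2 CPM dorsal and 49.6 CPM ventral (log2 ratio -0.27). A further row with the symbol Ltbp4 had 0 UMIs in both libraries and was not used.

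Mfap5 (ENSMUSG00000030116, chr6:122505845-122529290, plus strand) encodes a small microfibril glycoprotein that binds fibrillin. It went the other way, with 305 CPM in the dorsal library, against 174 CPM in the ventral library, 1.75-fold higher in dorsal cells. The median cell had 87.9 CPM in the dorsal library and 0 CPM in the ventral library. At 8000 UMIs per cell, 51.7% of dorsal and 35.7% of ventral cells had a Mfap5 UMI, above the 19.9% and 7.63% of dorsal and ventral macrophage-like cells. The top 10% of cells held 51.0% of its dorsal UMIs and 63.8% of its ventral UMIs, so that its concentration between cells was the reverse of that of Eln.

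The crosslinking genes were lower in dorsal cells, by less than 2-fold. Lox (ENSMUSG00000024529, chr18:52516067-52529867, minus strand), the lysyl oxidase that acts on collagen and elastin, had 773 CPM dorsally and 991 CPM ventrally (log2 ratio -0.36). Loxl1 (ENSMUSG00000032334, chr9:58287738-58313186, minus strand), an oxidase that fibulin-5 brings to elastin, had 163 CPM dorsally and 287 CPM ventrally, 1.76-fold higher in ventral cells. Only Eln and Mfap4 were above Lox among the 10 genes in either library. As a share the order of the domains was the opposite, since Lox made up 13.3% of the elastic fibre UMIs in dorsal cells and 8.47% in ventral cells.

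**Figure D2:**
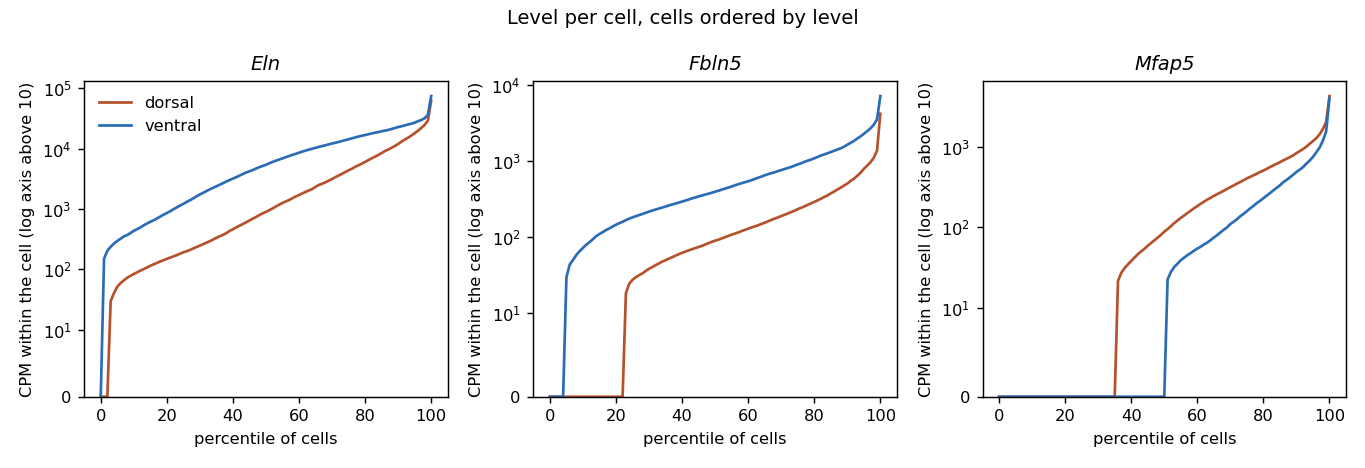
Level of Eln, Fbln5 and Mfap5 in single cells of the dorsal and ventral library, in CPM within the cell (log axis above 10, linear below), with cells ordered by level from the lowest to the highest percentile. The ventral line lies above the dorsal line for Eln and Fbln5, and the dorsal line above the ventral line for Mfap5, where the median ventral cell is at 0.

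Cells were clustered without these genes and without a wider list of elastic fibre genes, so that clusters do not rest on them. Classes were named by marker genes with a rule set after the clusters had been seen, and carry the ending "-like". Mural-like cells (smooth muscle and pericyte markers) were 661 cells or 7.41% of the dorsal library and 1252 cells or 11.8% of the ventral library. Fibroblast-like cells were 3600 or 40.3% dorsal and 5395 or 50.7% ventral. Mesothelial-like cells were 13 dorsal and 1084 ventral cells. Cells in unnamed clusters were 42.7% of the dorsal and 22.7% of the ventral library. They did not lack fibroblast markers. Each unnamed cluster of 50 or more cells had 9 to 11 of the 12 fibroblast markers in at least 50% of its cells, against 7 in the macrophage-like cluster. Most clusters came nearly wholly from 1 library, so a cluster may stand for its library as much as for a cell type.

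Eln was highest in mural-like cells in both libraries. It stood at 14920 CPM in dorsal mural-like cells, against 17760 CPM in ventral ones, with 3659 CPM in dorsal fibroblast-like cells, against 7257 CPM in ventral ones. The log2 ratio of mural-like over fibroblast-like cells was 2.03 for dorsal and 1.29 for ventral cells. Mural-like cells nevertheless held a minority of the Eln UMIs, 25.6% dorsally and 20.4% ventrally, while the more numerous fibroblast-like cells held 50.4% and 45.6%. The elastic fibre genes took 1.81% of all UMIs in dorsal and 2.21% in ventral mural-like cells, of which Eln was 82.4% and 80.2%. Mesothelial-like cells, the lining of the heart surface, had 1495 CPM of Eln in the ventral library, and there Lox came to 25.9% of the elastic fibre UMIs beside 41.6% for Eln. This Eln level was 0.158 times that of free RNA, below the 0.233 times of ventral macrophage-like cells. Lox was at 0.880 times its free RNA level, against 0.214 times in ventral macrophage-like cells. The part of free RNA in these values was not tested.

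Single clusters set these levels apart further. The highest Eln sum was ventral cluster 12, led by Sost, Igfbp2 and Acan, with 23420 CPM. Dorsal cluster 2, led by Cxcl15, Itih4 and Clca3a2, followed with 18500 CPM. Both are mural-like, yet a further pair of mural-like clusters was much lower: cluster 15, dorsal and led by the muscle genes Des and Actg2 and by Sbspon, had 6623 CPM, and cluster 19, led by the pericyte genes Rgs5 and Higd1b and by Mustn1, had 3727 CPM in its dorsal and 3823 CPM in its ventral cells. Cluster 19 is the one mural-like cluster with 50 or more cells in each library (51 dorsal, 376 ventral). Eln was nearly equal between its dorsal and ventral cells. This shared cluster did not hold under other clusterings. At resolution 2.0 the mural-like clusters led by Rgs5 and Mustn1 and by Higd1b and Ehd3 held 13 and 7 dorsal cells. With 4000 variable genes they held 1 and 4.

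Among fibroblast-like cells, ventral cluster 17 (led by Epha3, Col12a1 and Fst) had 11260 CPM of Eln and ventral cluster 22 (Gpx3, Adamtsl2 and Hsd11b1) had 3968 CPM. Dorsal cluster 3 (Gdf10, Cdo1 and Barx1) had 8005 CPM and dorsal cluster 1 (Tnfsf8, Cxcl13 and Il33) had 1249 CPM. The clusters of the 2 libraries overlapped, with dorsal cluster 3 above ventral cluster 22. Unnamed ventral cluster 18, led by the tendon-associated genes Fmod and Scx and by Cd34, had 10820 CPM. The lowest sum outside the endothelial-like, glial-like and macrophage-like clusters was unnamed dorsal cluster 8 (Saa3, Hpgd and Adgrd1) with 365 CPM. There Lox, at 788 CPM, was above Eln and made up 39.8% of the elastic fibre UMIs, against 18.4% for Eln. The unnamed cycling cluster 11, led by Ube2c, Top2a and Prc1, held cells of both libraries and had 1913 CPM of Eln in dorsal and 9229 CPM in ventral cells.

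**Figure D3:**
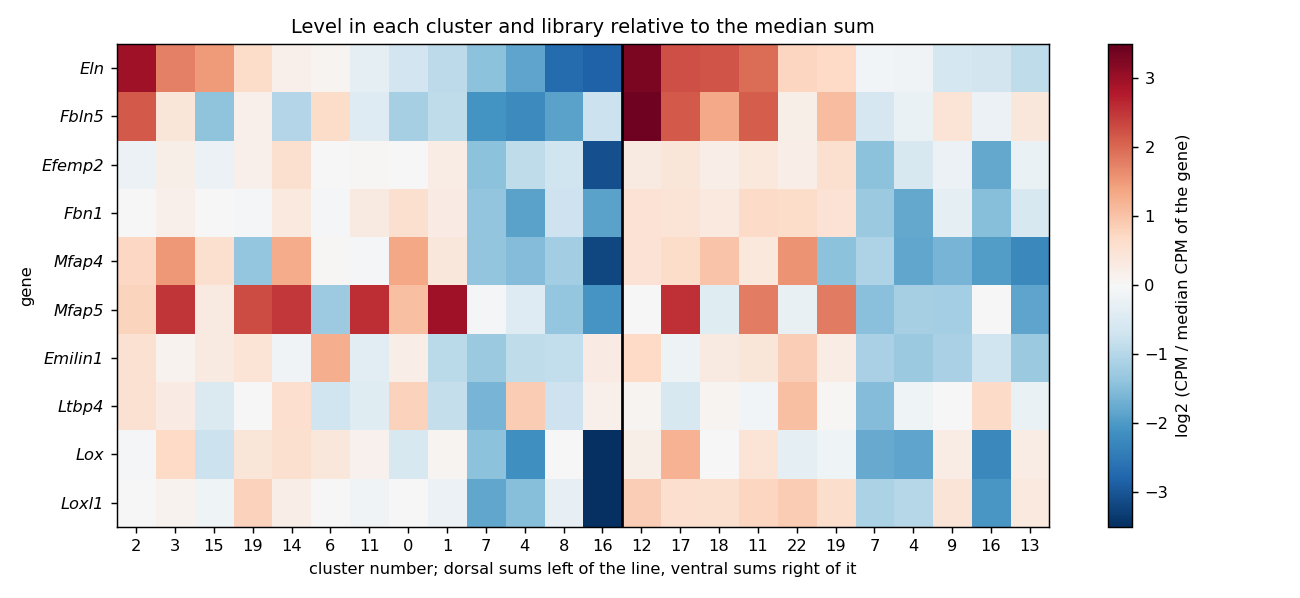
Levels of the 10 genes in 24 sums of cells (each 1 cluster in 1 library with at least 50 cells) as log2 of CPM over the gene's median sum, with dorsal sums left of the line and ventral sums right of it, each ordered by Eln, and values beyond the ends of the scale drawn in the end colours. Eln and Fbln5 are highest in ventral cluster 12, Mfap5 is highest in dorsal cluster 1, and Fbn1 lies between 147 and 381 CPM outside clusters 4, 7 and 16.

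The 10 genes differed in how far they varied between clusters. Leaving out the endothelial-like, glial-like and macrophage-like clusters, 18 sums remained, 10 dorsal and 8 ventral, among them the ventral mesothelial-like clusters 9 and 13. Over these, the highest level was 64.2 times the lowest for Eln, 38.1 times for Fbln5, 28.1 times for Mfap5 and 14.1 times for Mfap4. For the other genes it was 5.92 times for Emilin1, 3.93 for Lox, 3.69 for Ltbp4, 2.60 for Fbn1, 2.38 for Efemp2 and 2.26 for Loxl1. Mesothelial-like cluster 13 was the lowest sum for Mfap4 (127 CPM), Mfap5 (21.8 CPM) and Emilin1 (36.9 CPM), so their spans rest in part on a surface lining. Some low ends were near or below macrophage-like cells, whose levels are set beside free RNA below. Dorsal cluster 8 had 365 CPM of Eln and 57.1 CPM of Fbln5, against 876 and 48.7 CPM in dorsal macrophage-like cells. Ventral macrophage-like cells had 28.6 CPM of Mfap5. The part of free RNA in the widest spans was not tested. The scaffold backbone, the fibulin-4 gene and the oxidase Loxl1 were thus expressed at similar levels over clusters whose Eln levels were far apart.

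Fbln5 was highest in the same mural-like cluster as Eln, with 2179 CPM in ventral cluster 12, followed by 926 CPM in ventral cluster 17 and 917 CPM in dorsal cluster 2. A departure was dorsal cluster 15, with 6623 CPM of Eln and 78.0 CPM of Fbln5. Another was dorsal cluster 6, led by Mmp13, Col10a1 and Mmp3, with 324 CPM of Fbln5 at 2538 CPM of Eln. Across all 24 sums, Pearson's correlation of log2(CPM + 1) between Eln and Fbln5 was 0.80, and over those 18 sums 0.78. These correlations describe sums that share 2 libraries and carry no p-value.

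Mfap5 followed neither. It was highest in dorsal cluster 1 with 612 CPM, where it made up 14.1% of the elastic fibre UMIs, and high in dorsal cluster 11 with 475 CPM, in ventral cluster 17 with 461 CPM, in dorsal cluster 3 with 444 CPM and in dorsal cluster 14 with 436 CPM. In the clusters with the most Eln it was lower, with 77.7 CPM in ventral cluster 12 and 136 CPM in dorsal cluster 2. Mfap4 was highest in fibroblast-like clusters, with 1785 CPM in ventral cluster 22 and 1726 CPM in dorsal cluster 3, and reached 1548 CPM in unnamed dorsal cluster 0, led by Sele, Fbln1 and Cxcl2. It was at 236 CPM dorsally and 223 CPM ventrally of cluster 19 and at 195 CPM in the ventral mesothelial-like cluster 9. Emilin1 had its highest sum, 218 CPM, in dorsal cluster 6, where Mfap5 was at 32.4 CPM.

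The crosslinking genes and Efemp2 went together over all sums. Across the 24 sums the correlation was 0.94 between Efemp2 and Loxl1, 0.90 between Lox and Loxl1 and 0.86 between Fbn1 and Efemp2. Over the 18 sums without endothelial-like, glial-like and macrophage-like clusters the first was 0.56 and the second 0.26, while that of Fbn1 and Efemp2 was 0.80. Much of the likeness of the oxidases was therefore the contrast between those 18 sums and the rest. Lox was highest in ventral cluster 17 with 1810 CPM and lowest, among the 18 sums, in dorsal cluster 15 with 460 CPM. Eln and Lox had a correlation of 0.17 over the 18 sums.

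**Figure D4:**
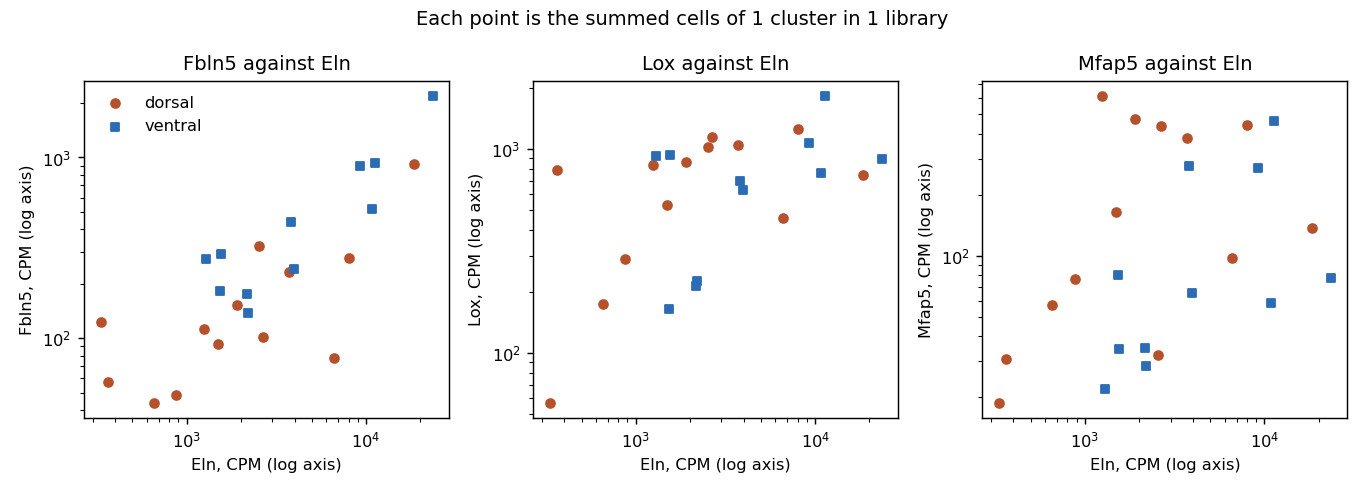
Levels in CPM, on log axes, of Fbln5, Lox and Mfap5 against Eln in 24 sums of cells, each 1 cluster in 1 library, with dorsal sums as circles and ventral sums as squares. Fbln5 climbs with Eln, with dorsal cluster 15 (6623 CPM of Eln, 78.0 CPM of Fbln5) below the others, while Lox lies between 460 and 1810 CPM outside the endothelial-like, glial-like and macrophage-like clusters.

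Among 2881 other genes at 100 CPM or more in at least 1 sum, the 5 whose log2 level was most like that of Eln over the 24 sums were Wisp2, Itga8, Fhl1, Pdgfrl and Picalm. Their Pearson correlations were 0.89 for Wisp2, which encodes a secreted matrix-associated protein, 0.88 for Itga8, an integrin subunit, 0.88 for Fhl1, a LIM domain protein, 0.85 for Pdgfrl and 0.85 for Picalm, a clathrin assembly protein. Wisp2 was first by Spearman's correlation too, at 0.90. Like Eln, each of the 5 had a lower level in the dorsal library. The choice favours this, since each sum comes from 1 library and the domain difference of Eln is part of the likeness. Wisp2 was at 169 CPM dorsally and 606 CPM ventrally and Itga8 at 30.1 CPM dorsally and 76.0 CPM ventrally.

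Within cell classes the domain difference of Eln was smaller in mural-like cells than in all cells, and that of Fbln5 was present in both main classes. The classes are made of different clusters in the 2 libraries: clusters 2, 15 and 19 in dorsal and 12 and 19 in ventral mural-like cells, and clusters 1 and 3 in dorsal and 17 and 22 in ventral fibroblast-like cells. In mural-like cells Eln had a log2 ratio of -0.25 (14920 CPM dorsal, 17760 CPM ventral) and Fbln5 one of -1.28 (690.0 CPM dorsal, 1675 CPM ventral). Of the 10 genes, 0 passed 2-fold on the dorsal side and 1, Fbln5, on the ventral side, beside 5.41% and 3.88% of 5727 genes. The smooth muscle list summed to 15210 CPM in dorsal mural-like cells, against 28850 CPM in ventral ones; its part in these ratios was not tested. Mfap4 was at 910 CPM in dorsal mural-like cells, against 673 CPM in ventral ones (log2 ratio 0.43), against -0.34 in fibroblast-like cells. When cells that resembled doublets were removed and the rest clustered again, the mural-like log2 ratios came to 0.08 for Eln, -0.91 for Fbln5, 1.18 for Mfap5 and 0.04 for Mfap4, which was at 0.77 at clustering resolution 2.0. The cause of these shifts was not tested.

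In fibroblast-like cells Eln had a log2 ratio of -0.99 (3659 CPM dorsal, 7257 CPM ventral) and Fbln5 one of -1.66 (173 CPM dorsal, 550 CPM ventral). Mfap5 was 2.24-fold higher in dorsal cells, with 547 CPM dorsal and 245 CPM ventral. Thus 1 of the 10 genes, Mfap5, passed 2-fold on the dorsal side and 1, Fbln5, on the ventral side, beside 5.09% and 5.72% of 5614 genes. These calls moved with the clustering: at resolution 2.0 Mfap5 was at 0.71 and no longer past 2-fold. Eln, just short of 2-fold here, passed it in each of the 4 alternatives, at -1.22 with resolution 2.0, -1.10 with 4000 variable genes, -1.07 with doublets removed and -1.15 with at least 16000 UMIs per cell. Emilin1 with 65.1 CPM dorsal and 126 CPM ventral, Ltbp4 with 31.9 CPM dorsal and 58.6 CPM ventral, and Loxl1 with 174 CPM dorsal and 310 CPM ventral were each lower in dorsal cells by less than 2-fold. At resolution 2.0 the log2 ratio of Ltbp4 was -0.25, in place of -0.88. Efemp2 was nearly equal, at 207 CPM dorsal and 220 CPM ventral. Smooth muscle markers summed to 889 CPM in dorsal fibroblast-like cells, against 6814 CPM in ventral ones, and the part of this difference in the Eln and Fbln5 ratios was not tested. Holding the cell classes at their mean shares gave log2 ratios of -1.36 for Eln, -1.88 for Fbln5 and 0.88 for Mfap5. All cells as they were had -1.44, -1.99 and 0.81. The step left out mesothelial-like and skeletal muscle-like cells and took the unnamed cells as 1 class, so it did not hold the cluster make-up constant. In all cells but the mural-like ones the ratios were -1.60, -2.01 and 0.81. Without the cycling cluster they were -1.40, -1.92 and 0.87. Both of these settings were chosen after the data had been seen.

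**Figure D5:**
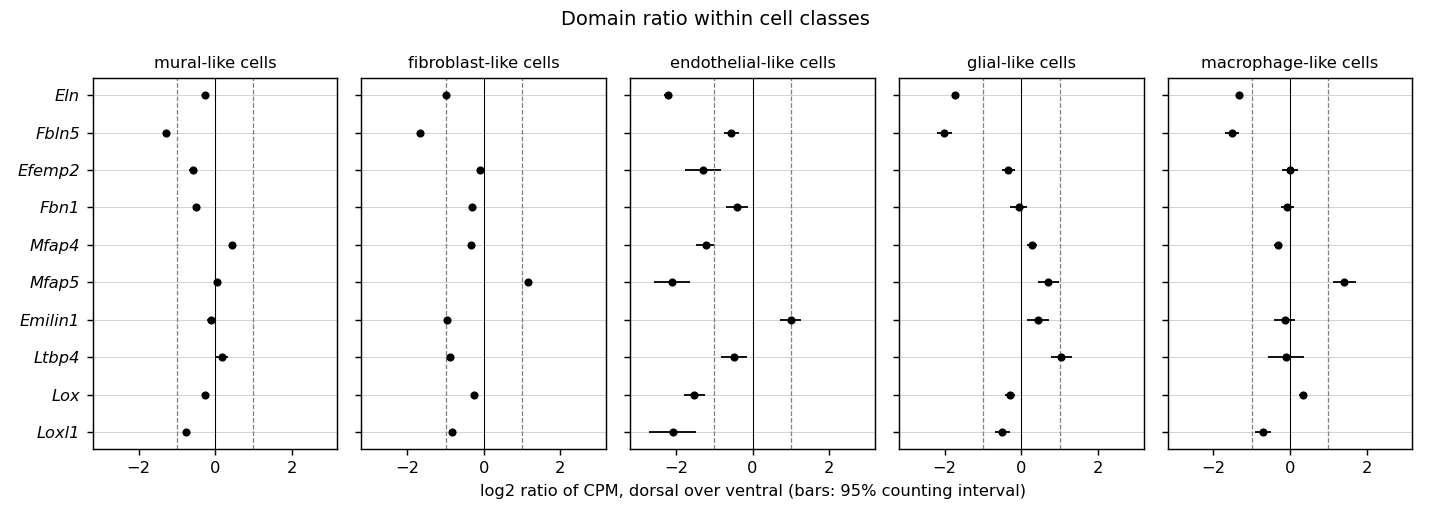
Log2 ratio of CPM, dorsal over ventral, of the 10 genes within 5 cell classes, with bars for 95% counting intervals and dashed lines at 2-fold. Fbln5 is lower in dorsal cells in each class, and Mfap5 has its ratio above 0 in fibroblast-like (1.16), glial-like (0.71) and macrophage-like (1.42) cells, near 0 in mural-like cells (0.05) and below 0 in endothelial-like cells (-2.10). In glial-like and macrophage-like cells both genes were at 0.162 to 0.279 times their free RNA level. The part of free RNA in those ratios was not tested.

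Of the 5 classes held by 50 or more cells per library, endothelial-like, glial-like and macrophage-like cells had the least of these genes (0.0852% to 0.178% of dorsal and 0.241% to 0.318% of ventral UMIs), and their values are compared with free RNA. In macrophage-like cells (196 dorsal, 131 ventral) the 10 genes lay between 0.222 and 0.439 times the level in barcodes of at most 100 UMIs in the dorsal library and between 0.162 and 0.385 times in the ventral library. The summed fibroblast markers lay at 0.354 and 0.263 times, within those ranges. In this class 1 gene, Mfap5, passed 2-fold on the dorsal side and 2, Eln and Fbln5, on the ventral side (3.49% and 2.92% of 5590 genes). Eln was at 876 CPM in dorsal macrophage-like cells, against 2200 CPM in ventral ones, with medians per cell of 134 and 444 CPM. Without the 39 dorsal and 20 ventral cells that resembled doublets, these levels were 633 and 1482 CPM. No ratio in this class is read as expression.

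Glial-like cells (467 dorsal, 195 ventral) had Eln at 657 CPM dorsal and 2165 CPM ventral, and at 164 CPM dorsal and 358 CPM ventral without cells that resembled doublets. Ltbp4 was at 75.2 CPM in dorsal glial-like cells, against 36.6 CPM in ventral ones. In the dorsal ones this was 1.83 times its free RNA level, where Eln had 0.166 times. Levels near this were seen elsewhere, with 84.1 CPM in ventral cluster 22 and 70.2 CPM in dorsal cluster 0. Of dorsal glial-like cells, 41.1% had an Ltbp4 UMI at 8000 UMIs, against 7.65% of dorsal macrophage-like cells, with median depths of 13260 and 43240 UMIs before thinning. In this class 1 gene, Ltbp4, passed 2-fold on the dorsal side and 2, Eln and Fbln5, on the ventral side (3.52% and 2.69% of 6273 genes). Eln was at 0.166 times its free RNA level in dorsal and 0.229 times in ventral glial-like cells. Fbln5 was at 0.229 and 0.25 times. The part of free RNA in those 2 ratios was not tested. With at least 16000 UMIs per cell the log2 ratio of Ltbp4 was 0.89, in place of 1.04, and that of Mfap5 1.16, in place of 0.71.

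Endothelial-like cells (104 dorsal, 146 ventral) had Eln at 333 CPM dorsally, the lowest of the sums of 50 or more cells, and at 1528 CPM ventrally. Of the 10 genes, 0 passed 2-fold on the dorsal side and 6 on the ventral side, beside 6.41% and 4.37% of 6505 genes. With cells that resembled doublets removed, the counts were 1 and 3, and the log2 ratios of Lox, Mfap4 and Efemp2 were -0.75, -0.53 and -0.53, in place of -1.52, -1.23 and -1.29. The summed fibroblast markers, 1280 CPM dorsal and 2335 CPM ventral, moved the same way as those 6 genes; their part was not tested. Emilin1 had the opposite ratio, with 111 CPM in dorsal endothelial-like cells, against 55.5 CPM in ventral ones (log2 ratio 0.99, 0.72 to 1.27). In dorsal cells of this class Emilin1 was at 1.28 and Ltbp4 at 1.11 times the free RNA level, against 0.0842 for Eln, and the summed fibroblast markers were at 0.0971 times theirs.

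A wider list of 64 elastic fibre genes was drawn from textbook roles, with earlier results of these data known. Of these, 41 reached 20 CPM, of which 5 passed 2-fold on the dorsal side, 8 on the ventral side and 28 on neither, beside 4.69% and 5.12% of the 5821 genes. The dorsal 5 included 4 matrix proteins: Mfap2, the closest relative of Mfap5, with 160 CPM dorsal and 59.2 CPM ventral, Fbln1 with 246 CPM dorsal and 86.0 CPM ventral, Hmcn1 with 35.5 CPM dorsal and 12.2 CPM ventral, and the proteoglycan Vcan with 77.0 CPM dorsal and 20.1 CPM ventral. Both small microfibril glycoproteins, Mfap2 and Mfap5, were thus higher in dorsal cells. The remaining one was Ctss, an elastin-degrading protease of macrophages, with 38.2 CPM dorsal and 14.5 CPM ventral; macrophage markers summed to 795 CPM dorsal and 415 CPM ventral, and their part was not tested.

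The 8 genes higher in ventral cells had mixed roles. Fbln2, another fibulin, had 414 CPM dorsal and 830.0 CPM ventral, on the other side from Fbln1. Timp3, an inhibitor of metalloproteases, had 141 CPM dorsal and 391 CPM ventral, and Cst3, an inhibitor of cathepsins, 1076 CPM dorsal and 2648 CPM ventral. Tgfb2 had 39.7 CPM dorsal and 228 CPM ventral, the widest ratio among these 8 (log2 -2.52), and Tgfb3 had a log2 ratio of -1.20. The other three were the receptor subunit Itgb5 with 127 CPM dorsal and 319 CPM ventral, the transglutaminase gene Tgm2 at a log2 ratio of -1.18 and the microfibril-associated Adamtsl2 at -1.37.

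Other abundant genes of the list differed by less than 2-fold. The proteoglycan Bgn had 2441 CPM dorsal and 2736 CPM ventral, and Pcolce, an enhancer of procollagen cleavage, 392 CPM dorsal and 412 CPM ventral. The proteases Ctsl, with 2505 CPM dorsal and 1515 CPM ventral, and Mmp2, with 248 CPM dorsal and 174 CPM ventral, were on the dorsal side, as was Timp1 (log2 ratio 0.55). Itgb1 and Timp2 were on the ventral side, at log2 ratios of -0.84 and -0.58, and Ctsa stood at 0.15.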

How the data were processed

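Single-cell 3' libraries (10x v3, per the labels' protocols) of 1 dorsal and 1 ventral pool were used. The authors deposited matrices of raw UMI counts, not normalized and not limited to cells, with 28692 genes by 6794880 barcodes each. Per the submitters' processing notes they ran Cell Ranger 3.0.2 with mm10; annotation release, strand setting and filters: not given in the sources used here. For Mfap4 and Efemp2 the 3' ends overlap genes on the other strand, so reads shared with those cannot be told apart without the strand setting. Positions are from GENCODE M21 on GRCm38.

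Barcodes with at least 8000 UMIs and at most 20% mitochondrial UMIs were kept, which removed 9 dorsal and 15 ventral barcodes by the mitochondrial limit. The cells held 92.8% of the 246920028 dorsal and 95.6% of the 264822916 ventral UMIs. UMIs were summed over cells and scaled to CPM. Intervals were exact at 95%: Poisson for CPM, conditional binomial for ratios, Clopper-Pearson for shares. Shares used cells thinned to 8000 UMIs. With 1 library per group there is no p-value, and counts at 2-fold describe size.

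For clustering, cells were normalized to 10000 UMIs and log-transformed, with 2000 variable genes, 30 components, 15 neighbours and Leiden resolution 1.0, without integration (scanpy 1.11.5, igraph 0.11.9). A class needed at least 3 markers and a set share of its list, each in 25% of cells and 2-fold above other cells with 5 CPM added, and its own marker among the 10 leading genes. Fibroblast-like clusters needed 5 markers in 50% of cells, at least 50 cells and fewer than 5 cell cycle genes among the 10 leading genes. A cluster that met the marker counts of another class was not called fibroblast-like. For every class, no other list but the cell cycle could have more of those 10 genes. Scrublet marked 768 ventral barcodes (7.21%). It marked 0% of dorsal barcodes and was taken as failed; the 637 barcodes (7.14%) with the highest scores, the number expected, stood in. Both sets were removed as an alternative only.

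Named genes were the 10 members; of the wider list, genes at 20 CPM or more and 2-fold apart plus up to 8 others at the highest CPM; the 5 genes most like Eln; and the 3 leading genes of a cluster. Members, lists and markers were chosen with earlier results of these data known. Alternatives were a UMI minimum of 4000 or 16000, a mitochondrial limit of 10%, doublet removal, TMM scaling, means over cells, fixed class shares, other CPM minimums, resolution 2.0, 4000 variable genes, no thinning and Spearman's correlation. The interval, ratio and scaling steps were tested on simulated data.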

Additional observations from a re-analysis of the deposited data

Results flagged for a closer look

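Mfap5 had opposite ratios in 2 small classes. In macrophage-like cells its log2 ratio, dorsal over ventral, was 1.42, from 695 dorsal and 113 ventral UMIs, and 2.39 with cells that resembled doublets removed. In endothelial-like cells it was -2.10, from 47 dorsal and 263 ventral UMIs, and -1.81 with those cells removed. The 2 ratios point in opposite directions, and this difference was not tested, since each class has 1 library per domain. Mfap5 was at 0.279 times its free RNA level in dorsal and 0.162 times in ventral macrophage-like cells, and at 0.0685 times in dorsal and 0.453 times in ventral endothelial-like cells; the part of free RNA in the ratios was not tested.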

How the results depend on the processing

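No paired analysis was possible because each domain has 1 library and no test was made. In all cells the counts of 0 and 2 members past 2-fold, and the sign of every member's ratio, held under several alternatives. These were the 4000 UMI minimum, the 10% mitochondrial limit, doublet removal, TMM scaling and means over cells. The counts and signs also held without mural-like or cycling cells. They held under fixed class shares too, which left out mesothelial-like and skeletal muscle-like cells. TMM scaling moved all log2 ratios by -0.12 and the median of all genes from 0.01 to -0.11. Over all genes, 273 dorsal and 298 ventral genes passed 2-fold at 20 CPM, 3892 and 2070 without a minimum, and 90 and 114 at a minimum of 100 CPM, by construction of the minimum. Of the wider list, 14 genes in place of 5 were higher in dorsal and 10 in place of 8 in ventral cells without a minimum, and 5 and 9 under TMM scaling.

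The cause of the following changes was not tested. The Eln log2 ratio of mural-like over fibroblast-like cells, 2.03 dorsal and 1.29 ventral, was 2.26 and 1.22 at resolution 2.0, 2.15 and 1.28 with 4000 variable genes, and 2.19 and 1.04 with doublets removed. In fibroblast-like cells, 0 members in place of 1 were higher in dorsal cells at resolution 2.0. In ventral ones 2 in place of 1 were higher at resolution 2.0, with 4000 variable genes and with doublets removed, and 3 with at least 16000 UMIs per cell. With doublets removed, 1 member was higher in dorsal and 0 in ventral mural-like cells, and 1 in dorsal and 3 in ventral endothelial-like cells. Signs that turned with doublets removed were those of Eln (0.0834), Lox (0.0242) and Ltbp4 (-0.33) in mural-like cells, Fbn1 (0.23) in endothelial-like cells and Mfap4 (-0.42) in glial-like cells. With at least 16000 UMIs per cell, Lox and Fbn1 in glial-like cells turned to 0.13 and 0.33, and Mfap5 in mural-like cells, near 0 at 0.05, to -0.20; it was -0.15 at resolution 2.0. Efemp2 in macrophage-like cells, at 0.00, was -0.07 with doublets removed and -0.05 with at least 16000 UMIs per cell. Depth limits the endothelial-like values most, where Loxl1 had 27 dorsal UMIs.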

Other observations

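Some relatives of the elastic fibre genes were picked out after their values had been seen. Fbn2, a fibrillin made mainly before birth, had 173 CPM dorsally and 105 CPM ventrally (log2 ratio 0.73), on the other side from Fbn1 at -0.29. Loxl2, a further lysyl oxidase, had 91.3 CPM dorsally and 174 CPM ventrally (log2 ratio -0.93), on the side of Loxl1. Emilin2 was low, with 12.4 CPM dorsally and 1.56 CPM ventrally (log2 ratio 2.98), where Emilin1 was at -0.45.

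The elastases Mmp12 and Elane were also low. Mmp12 had 8.40 CPM dorsally and 0.458 CPM ventrally, and Elane had 83 dorsal and 3 ventral UMIs. Macrophage markers, higher in the dorsal library for all 10 genes, summed to 795 CPM dorsal and 415 CPM ventral, and neutrophil markers, higher for 4 of 5, to 16.7 CPM dorsal and 0.743 CPM ventral. Their part in these levels was not tested.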
